A study of Homo sapiens with 16 samples.

Results

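OVCAR3 cells, an established human ovarian carcinoma line, were compared after 72 h and after 8 h with 1,25-dihydroxyvitamin D3, the active hormone made from vitamin D and written 1,25(OH)2D3. The comparison took the 3 U133A arrays labelled 72 h and the 3 labelled 8 h, that is 6 of the 16 arrays of the series, and no vehicle array entered the contrast. The question was which transcripts moved between an early and a late time in cells that all carried the hormone. Both groups are the same wild-type line, given the hormone in ethanol at 0.1 pM per the labels, and the arrays cannot check that unit. Additions were staggered so that the cells of all times were harvested together, with equal exposure to ethanol, and the replicates were 3 independent experiments. The other U133A arrays were 3 ethanol vehicle cultures and 3 with 24 h of hormone. They added to the estimate of the spread, and their levels are given beside the results. A further 4 arrays of the older U95 type held 1 sample each of vehicle, 8 h, 24 h and 72 h.

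1,25(OH)2D3 binds the vitamin D receptor, VDR, which pairs with a retinoid X receptor on DNA and acts on nearby genes within hours. Proteins made from those first targets include transcription factors, secreted factors and enzymes, which can in turn alter further genes over days. In epithelia the hormone is known for its effects on calcium transport, growth, differentiation and the production of antimicrobial peptides. An array comparison of this kind measures RNA levels, so it does not separate direct targets of the receptor from later ones. One line gives no information on ovarian tumours in general.

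The arrays of both groups were alike in their overall properties. Median signals lay between 168 and 196 over the 12 U133A arrays. Pairs of arrays within the 8 h or the 72 h group correlated at 0.964 to 0.973 on the log2 scale, and pairs across the groups at 0.964 to 0.971. The log2 ratio of the 3' to the 5' control probe set of ACTB was 0.159, 0.229 and 0.176 at 8 h and 0.048, 0.175 and 0.061 at 72 h, so it was lower on average at 72 h, and its part in the results was not tested. All 10 epithelial markers were above the filter, with summed signals of 37093 to 42197 at 8 h and 38348 to 41667 at 72 h. Of the other markers, 3 of 10 for fibroblasts, 3 of 8 for leukocytes, 2 of 8 for endothelium and 1 of 5 for mesothelium were above it, and none of these 9 passed the test. Their summed signals overlapped between 8 h and 72 h, except for the mesothelial list, which ran from 849 to 932 at 8 h and from 1070.3 to 1155 at 72 h. Most of that difference came from MSLN, its 1 member above the filter, with means of 464 at 8 h and 707 at 72 h. CALB2 and DES were a little higher at 72 h, and UPK3B and KRT5 were lower.

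Of 7178 genes tested, 99 (1.38%) were higher and 82 (1.14%) were lower at 72 h than at 8 h, 181 (2.52%) in all, by limma with Benjamini-Hochberg adjusted p under 0.05. Without 8 h replicate 3 the counts were 63 higher and 40 lower, 103 in all, and without 8 h replicate 2 they were 64 and 44, 108 in all. Without 8 h replicate 1 there were 51 lower, and without 72 h replicate 1 there were 63 higher, 120 in all. Where the call of a gene is said below to end without an array, its losses in other settings are listed with the alternative settings. Changes are differences of log2(signal + 15.8), so a change of 1 is a doubling on that scale, and folds of genes with low signals depend on the added number. The median change was 0.75 among the genes that rose and -0.63 among those that fell, and -0.01 over all genes tested. A change of at least 2-fold was found for 27 genes that rose (0.376%) and 18 that fell (0.251%). In 1302 genes (18.1%) the 3 values at 72 h all lay beyond the 3 values at 8 h, and these included all 181 called genes. Over all 22215 probe sets other than controls, with no filter and 1 test for each probe set, 182 (0.819%) passed, 106 higher and 76 lower. The exact two-sided permutation test of 3 arrays against 3 cannot go below 0.1, so the calls rest on the model of limma. That model shares its estimate of the spread across genes and, in the main fit, across the 4 groups.

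**Figure D1:**
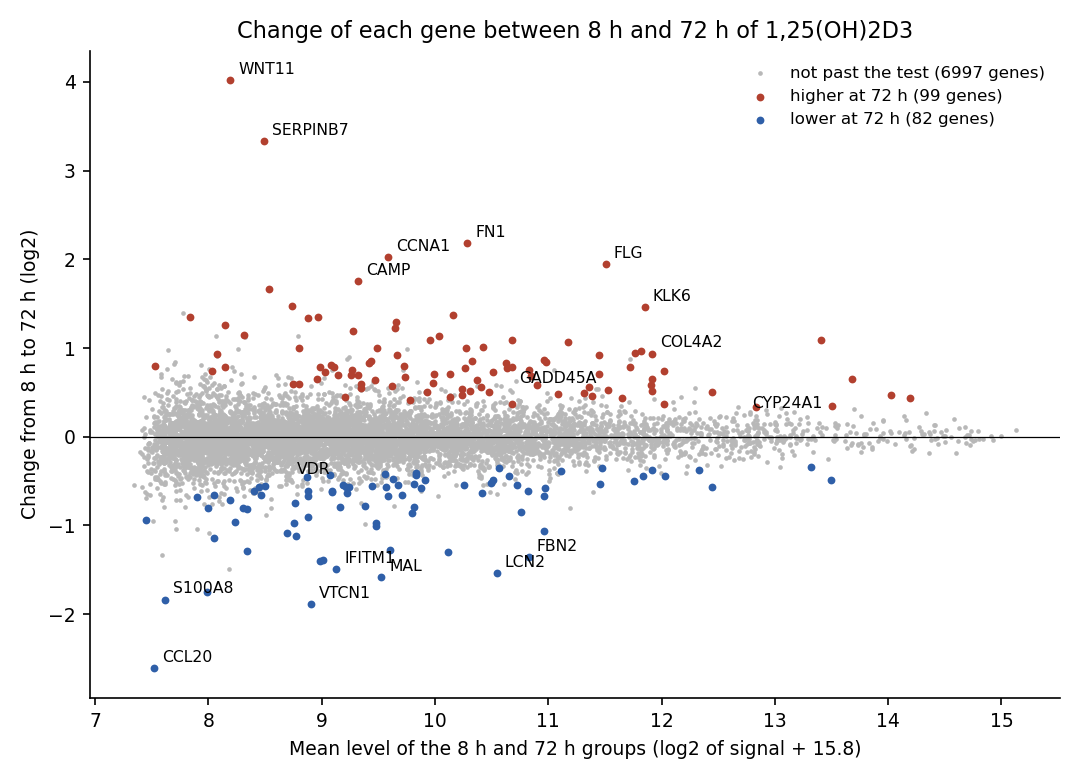
Change from 8 h to 72 h of each of the 7178 genes tested (vertical axis, log2) against its mean level in both groups (horizontal axis, log2 of signal + 15.8). Red points are the 99 genes that rose, blue points the 82 that fell and grey points those not past the test. WNT11 and SERPINB7 stand above the rest, CCL20 lies lowest, and CYP24A1 lies among the grey points.

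The genes that moved did not include the best-known target of the hormone. CYP24A1, the 24-hydroxylase that inactivates the hormone, gave signals of 6045, 6615 and 5895 at 8 h and 7486, 8808 and 5995 at 72 h, beside 56.4, 84.1 and 247 in vehicle. All 6 hormone arrays were far above vehicle, and the values at 72 h overlapped those at 8 h. The difference was 0.25 (SE 0.33, 95% interval -0.45 to 0.95, limma adjusted p = 0.82), so a further doubling is outside the interval but a smaller change is not. VDR itself gave 529, 405 and 504 at 8 h and 342, 304 and 364 at 72 h. The groups did not overlap, but the difference of -0.49 (SE 0.14) missed the threshold (adjusted p = 0.10), and the 4 probe sets of VDR ranged from -0.49 to 0.27. GADD45A, a growth arrest gene, gave 1313, 1236 and 1447 at 8 h and 2220.2, 1631 and 1976 at 72 h, with a difference of 0.53 (SE 0.15) that also missed it (adjusted p = 0.079). Its adjusted p was 0.042 without 72 h replicate 2. Whether GADD45A and VDR passed also depended on the use of the replicate number as a block, given with the alternative settings. None of the 15 tested members of the vitamin D metabolism and receptor list passed by limma, 2 had an unadjusted p under 0.05, and the median was -0.04.

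Of 24 tested genes listed as VDR targets, 6 rose and 1 fell, beside 1.38% and 1.14% of all genes tested. The median change was 0.17. CAMP encodes cathelicidin, an antimicrobial peptide of epithelia and neutrophils. Its signals were 407, 215 and 390.2 at 8 h and 1262, 1029 and 1124 at 72 h, a 3.37-fold rise (log2 change 1.75, SE 0.20, adjusted p = 9.8e-05). Vehicle lay at 30.8 ± 3.63 and 24 h at 896 ± 103 (mean ± SD, n = 3), so each time group lay above the one before it. KLK6, a secreted kallikrein protease, gave 2381, 2009 and 2209 at 8 h and 6351, 4963 and 7095 at 72 h, and rose 2.75-fold (log2 change 1.46, SE 0.14, adjusted p = 1.4e-05). The lowest array at 72 h was more than double the highest at 8 h. SERPINB1, an inhibitor of neutrophil proteases, rose by 0.68 (SE 0.12, adjusted p = 0.0065), and the remaining risers of the list were FN1, CDH1 and KLK10. S100A8, a calcium-binding protein of inflamed epithelia and myeloid cells, was the member that fell. It gave 442, 314 and 305 at 8 h and only 62.1, 92.4 and 110.0 at 72 h (log2 change -1.84, SE 0.24, adjusted p = 3.9e-04). The 72 h values of S100A8 all lay under the filter's level, a signal of 169. Its other probe set had low signals, with means of 16.3 at 8 h and 4.75 at 72 h (difference -0.50).

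WNT11, a secreted Wnt ligand that acts mainly through pathways other than beta-catenin, had the largest log2 change among the genes that rose, with 1 probe set a gene and 15.8 added. Its signals were 61.4, 47.2 and 60.8 at 8 h and 1275, 928 and 1291 at 72 h, a log2 change of 4.02 (SE 0.23, adjusted p = 1.2e-07). The 8 h and vehicle signals lay under the filter's level, a signal of 169, and the gene was tested through its 24 h and 72 h arrays. Its change was 4.34 with an offset of 1 and 3.35 with one of 63.3, so no exact fold is given. The vehicle arrays gave 44.8, 20.3 and 37.5 and the 24 h arrays 348, 529 and 412. The 8 h arrays lay just above the vehicle arrays, while the 24 h and 72 h groups were each far above every array of the shorter times. WNT5A, another ligand of the same class, went the other way, from 2357, 2639.7 and 1961 at 8 h to 1205, 1272 and 1343 at 72 h (log2 change -0.85, SE 0.11, adjusted p = 4.9e-04). Its vehicle level was 1834 ± 165, below the mean at 8 h and above that at 72 h. These were the only called genes among 23 tested members of the Wnt list, beside 2.52% of all genes tested. The list median was -0.10.

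**Figure D2:**
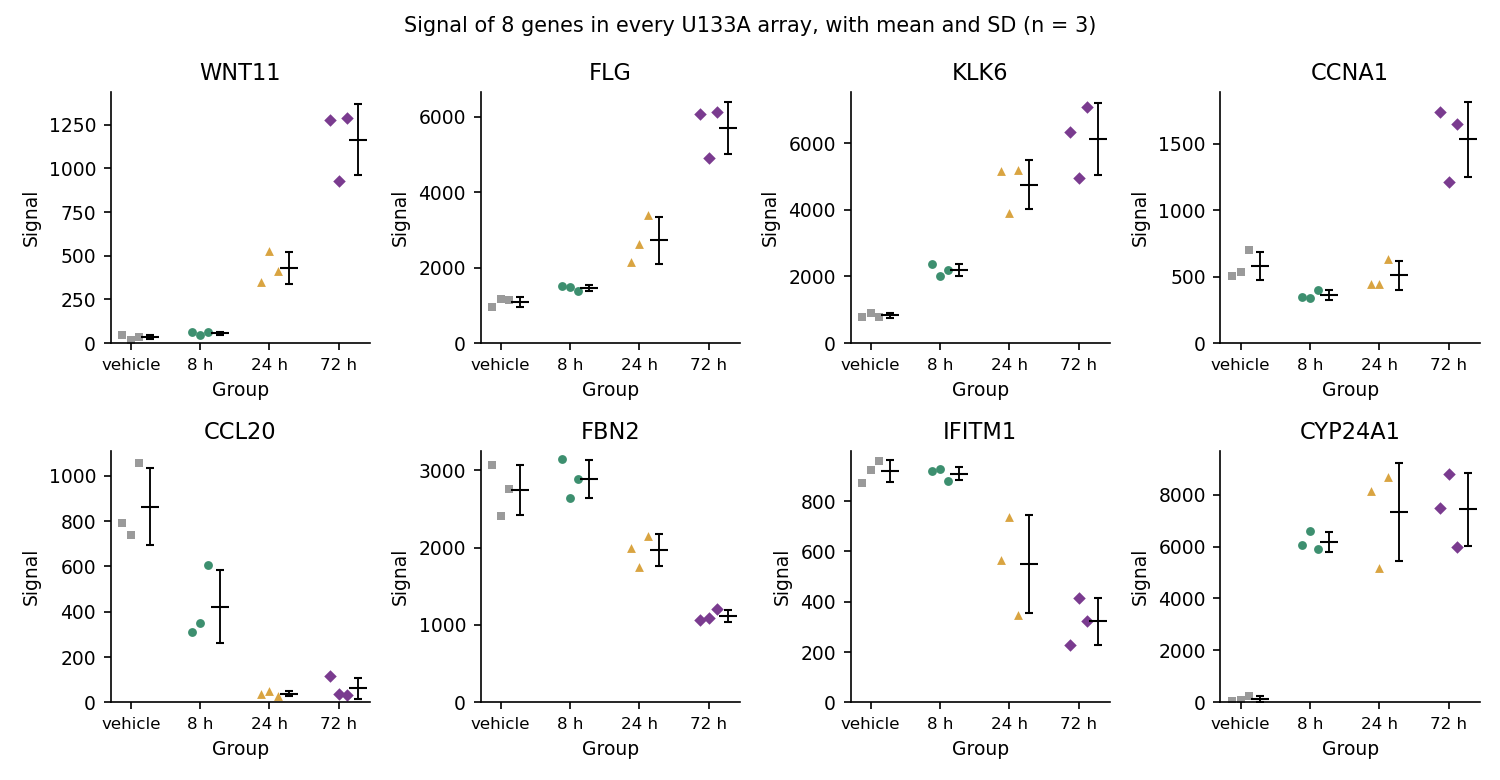
Signal (vertical axis, linear, from 0) of 8 genes in every U133A array by group, with the mean and SD beside the 3 arrays of each group (n = 3). WNT11, FLG, KLK6 and CCNA1 are highest at 72 h, CCL20, FBN2 and IFITM1 are lower at 72 h than at 8 h, and CYP24A1 overlaps between 8 h and 72 h.

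Kallikreins and clade B serpins, secreted or cytosolic proteases and protease inhibitors of epithelia, were the list with the highest median of the 32 lists, at 0.61. Past the test were 5 of 13 tested members, all higher at 72 h, beside 1.38% of all genes tested that rose. The members were chosen with earlier results of these arrays known, so the direction of the list is not independent evidence. SERPINB7, a clade B serpin of skin and kidney, gave 166, 70.0 and 67.2 at 8 h and 1007, 1165 and 1084 at 72 h (log2 change 3.33, SE 0.28, adjusted p = 4.4e-06). The replicates at 72 h were close, and 8 h replicate 1 was well above the other 2 at that time. SERPINB7 signals at 8 h and in vehicle lay under the filter's level of 169, so the gene was tested through its 24 h and 72 h arrays. Over the alternative settings its change ran from 2.85 to 3.70. KLK5, a protease of the epidermis, gave 1179, 1297 and 1039 at 8 h and 2222, 2160.4 and 1903 at 72 h (log2 change 0.83, SE 0.11, adjusted p = 3.8e-04). Beside KLK6 and SERPINB1 above, KLK10, named here after its values were seen, rose by 0.61 (adjusted p = 0.026), a call that ended without 8 h replicate 1 or 2 or without 72 h replicate 1 or 2 (highest adjusted p 0.12). With the mean of its probe sets the difference of KLK10 was 0.38 (adjusted p = 0.10). In all, 12 of the 13 members had a positive difference, against 3399 of all 7178 genes.

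Keratins and squamous differentiation genes were split, with 1 of 16 tested members higher and 2 lower, beside 1.38% and 1.14% of all genes tested. Their median was 0.13. FLG encodes filaggrin, which bundles keratin filaments in the outer epidermis. It gave 1519, 1494 and 1376 at 8 h and 6075, 4911 and 6121 at 72 h, a 3.85-fold rise (log2 change 1.95, SE 0.14, adjusted p = 1.5e-06). At 24 h the 3 arrays lay between, at 2151, 2627 and 3391. KRT23, a type I keratin, gave 838, 688 and 910.2 at 8 h and 248, 256 and 418 at 72 h (log2 change -1.39, SE 0.17, adjusted p = 2.4e-04). The other member that fell was S100A8.

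Several further secreted and structural genes were among the 15 largest rises. CHRDL1, an antagonist of bone morphogenetic proteins, gave 706, 726 and 645 at 8 h and 1828, 1822 and 1816 at 72 h (log2 change 1.38, SE 0.10, adjusted p = 1.3e-06), so the 72 h arrays differed from each other by less than 1%. CCNA1, the cyclin A of germ cells, gave 346, 339 and 402 at 8 h and 1741, 1214 and 1649.7 at 72 h (log2 change 2.02, SE 0.17, adjusted p = 4.4e-06). Its vehicle arrays, at 504, 532 and 699.9, lay above the 8 h arrays and below those at 72 h. CAVIN1, a coat protein of caveolae, rose from 499 ± 82.4 to 1242 ± 102 (log2 change 1.30, SE 0.16, adjusted p = 2.4e-04). NOX4, an oxidase that makes hydrogen peroxide, gave 409, 300.3 and 198 at 8 h and 861, 648 and 796 at 72 h (log2 change 1.35, SE 0.27, adjusted p = 0.011), and its call ended without 8 h replicate 3 or without 72 h replicate 1 (highest adjusted p 0.064). RAB38, a small GTPase of melanosome transport, rose from 128 ± 25.1 to 349 ± 68.3 (adjusted p = 0.035), a call that ended without any 1 of the 6 arrays compared (highest adjusted p 0.15). Its 8 h and vehicle means lay under the filter's level of 169, so it was tested through its 24 h and 72 h arrays.

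**Figure D3:**
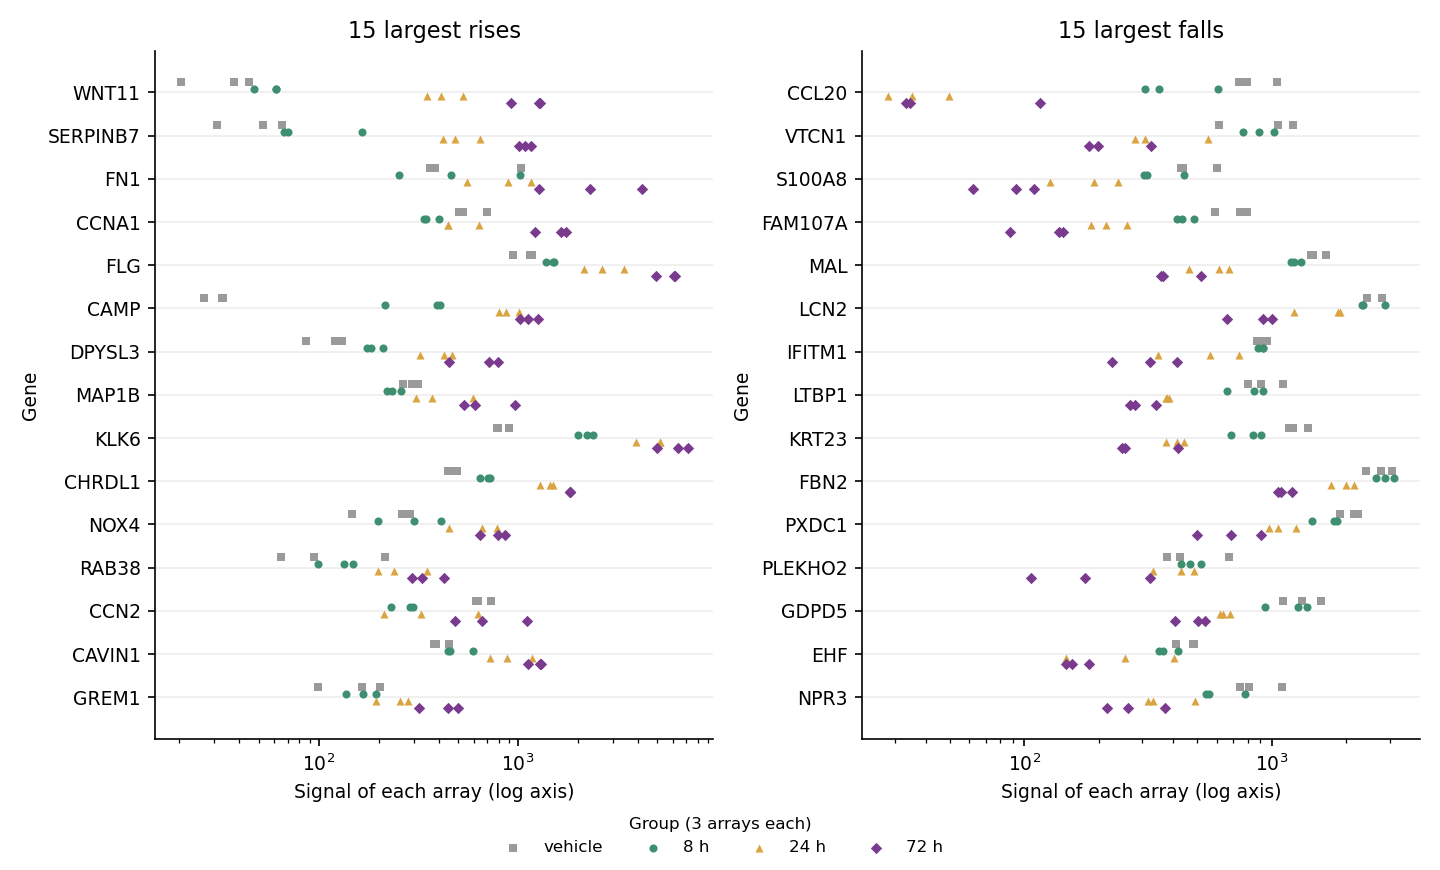
Signal of every U133A array (horizontal log axis) for the 15 genes with the largest rise (left) and the 15 with the largest fall (right), 3 arrays in each of 4 groups. For every gene shown, the 3 diamonds of 72 h lie on one side of the 3 circles of 8 h, which the rule for naming required.

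Cytoskeletal regulators held changes in both directions, 4 of 33 tested members higher and 2 lower, beside 1.38% and 1.14% of all genes tested. Their median was 0.19. DPYSL3, a phosphoprotein of growing neurites that binds tubulin, gave 211, 176 and 184 at 8 h and 798, 449 and 719 at 72 h (log2 change 1.67, SE 0.22, adjusted p = 3.8e-04). MAP1B, a microtubule-associated protein, gave 233, 219 and 259 at 8 h and 609.9, 537 and 969.7 at 72 h (log2 change 1.47, SE 0.22, adjusted p = 0.0016). MYL9, the regulatory light chain of smooth-muscle and non-muscle myosin, gave 435, 379.7 and 360.3 at 8 h and 1063, 726 and 975 at 72 h (log2 change 1.19, SE 0.15, adjusted p = 2.7e-04). In these genes the spread among arrays was wider at 72 h than at 8 h. FAM107A, an actin-binding protein, was the large fall of the list. It gave 433, 416 and 488 at 8 h and 144, 138 and 87.3 at 72 h (log2 change -1.76, SE 0.19, adjusted p = 5.9e-05). Those 72 h values lay under the filter's level, a signal of 169. Its other probe set also fell, from a mean of 819 at 8 h to 12.8 at 72 h. That larger difference, -4.87, depends on the offset of 15.8, which exceeds the 72 h mean.

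Among extracellular matrix and basement membrane genes, 3 of 28 tested members rose and 1 fell, beside 1.38% and 1.14% of all genes tested. The list median was -0.06. The 2 chains of the most widespread collagen IV network both rose. COL4A2 gave 3061, 2628 and 2616 at 8 h and 5982, 4866 and 5105 at 72 h (log2 change 0.94, SE 0.10, adjusted p = 6.4e-05). COL4A1 gave 3552, 2789.7 and 3274 at 8 h and 5789, 5514 and 4804 at 72 h (log2 change 0.74, SE 0.13, adjusted p = 0.0054), and its 24 h mean of 5521 ± 764 was already at the 72 h level of 5369 ± 508. FN1, fibronectin, gave 1026, 253 and 463 at 8 h and 4216, 1280.4 and 2288 at 72 h. Replicate 1 was highest in both groups, and 8 h replicate 1 came close to 72 h replicate 2. The difference of 2.18 (SE 0.49, adjusted p = 0.026) comes from a probe set that may bind related transcripts. The 4 FN1 probe sets above the filter ranged from 2.18 to 3.45, and those under it differed by 0.57 and 0.13. The FN1 call ended in 6 of 22 settings, among them leaving out 8 h replicate 2 or 3 or 72 h replicate 1 or 3 (highest adjusted p 0.14). FBN2, a fibrillin of elastic fibres, fell from 3139, 2638 and 2882 to 1058, 1095 and 1205 (log2 change -1.35, SE 0.11, adjusted p = 4.1e-06), and its vehicle mean was 2744 ± 327.

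TGF-beta, activin and BMP genes numbered 40 tested, of which 3 rose and 2 fell, beside 1.38% and 1.14% of all genes tested. Their median was -0.05. Secreted antagonists were among the risers. FST encodes follistatin, which binds activin, and gave 1115, 1195 and 999.9 at 8 h and 3035, 2033 and 2129.6 at 72 h (log2 change 1.09, SE 0.14, adjusted p = 3.8e-04). GREM1, a BMP antagonist, gave 195, 167 and 138 at 8 h and 445, 319.8 and 503 at 72 h (log2 change 1.25, SE 0.24, adjusted p = 0.0099, or 0.057 without 8 h replicate 3). The 8 h and vehicle means of GREM1 lay under the filter's level of 169. ID3, a target of BMP signals named after its values were seen, rose by 0.75 (adjusted p = 0.040), a call that ended without any 1 of the 8 h arrays, without 24 h replicate 1 and without 72 h replicate 1 or 3 (highest adjusted p 0.18). LTBP1, which holds latent TGF-beta in the matrix, gave 848, 661 and 924 at 8 h and 269, 279 and 341 at 72 h (log2 change -1.40, SE 0.15, adjusted p = 5.9e-05). TGFBR2, the type II TGF-beta receptor, fell by 0.55 on the log2 scale (SE 0.12, adjusted p = 0.020), and this call ended without 8 h replicate 2 or 3 or without 72 h replicate 1 or 3 (highest adjusted p 0.10). CCN2, a matricellular protein of the connective tissue growth factor family, gave 299, 231 and 286 at 8 h and 659, 482 and 1111 at 72 h, beside 628, 616 and 730.2 in vehicle. Its 8 h arrays lay below every vehicle array, and the vehicle and 72 h ranges overlapped. The rise from 8 h (log2 change 1.34, SE 0.31, adjusted p = 0.031) was lost without any 1 of the 8 h arrays and without 72 h replicate 1 or 3 (highest adjusted p 0.12).

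Chemokines and other genes linked to NF-kappaB, the transcription factor family of inflammatory signals, held the largest fall with 1 probe set a gene, beyond which lay the other FAM107A probe set given above. CCL20, a chemokine that attracts CCR6-bearing lymphocytes and dendritic cells, gave 308, 351 and 608 at 8 h and 115, 34.6 and 33.2 at 72 h (log2 change -2.61, SE 0.34, adjusted p = 3.9e-04). The vehicle arrays gave 793, 740.1 and 1056 and the 24 h arrays 35.1, 49.5 and 28.0, so the 24 h and 72 h ranges overlapped. Both ranges lay under the filter's level of 169, so CCL20 was tested through its vehicle and 8 h arrays. Over the alternative settings its change ran from -3.08 to -1.98. LCN2, an iron-carrier-binding protein of the antibacterial defence, gave 2353, 2332 and 2868 at 8 h and 924, 1007 and 660.4 at 72 h (log2 change -1.54, SE 0.17, adjusted p = 7.3e-05), while its vehicle mean was 2552 ± 206. CXCL2, a neutrophil chemokine, gave 843, 902 and 1196 at 8 h and 627, 495 and 368 at 72 h (log2 change -0.97, SE 0.17, adjusted p = 0.0053), from a probe set that may also bind related chemokine transcripts. TNFAIP2, named after its values were seen, fell by 0.37 (adjusted p = 0.030), or missed the threshold with the mean of its probe sets (0.46), without any 1 of the 8 h arrays and without 72 h replicate 2 or 3. CSF1, the macrophage growth factor, rose by 0.79 (SE 0.14, adjusted p = 0.0054), although its 4 probe sets, of which 1 was above the filter, ranged from -0.42 to 1.00. In all, 4 of 28 tested members of the list fell and 1 rose, beside 1.14% and 1.38% of all genes tested. The list median was -0.03.

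Interferon response genes numbered 42 tested, of which 4 fell and 1 rose, beside 1.14% and 1.38% of all genes tested. Their median was -0.11. The members that fell were the IFITM genes, small membrane proteins that hinder virus entry, and B2M. IFITM1 gave 920.3, 926 and 879.8 at 8 h and 227, 415 and 322 at 72 h (log2 change -1.49, SE 0.22, adjusted p = 0.0011), and its vehicle arrays, at 871, 925 and 957, spanned the 8 h values. IFITM2 gave 2211, 2519.6 and 2718 at 8 h and 1311, 1516 and 1875 at 72 h (log2 change -0.67, SE 0.12, adjusted p = 0.0077). IFITM3 gave 4273, 4212 and 4254 at 8 h and 3027, 3074 and 3248 at 72 h (log2 change -0.45, SE 0.08, adjusted p = 0.0059). The IFITM transcripts are close in sequence and the IFITM2 and IFITM3 probe sets are of the kind that may bind both, so these values are not separate measurements of each gene. B2M, the light chain of MHC class I, named after its values were seen, fell by 0.34 (adjusted p = 0.018), a call that ended without any 1 of the 8 h arrays and without 72 h replicate 1 or 3 (highest adjusted p 0.087 over all settings). PLSCR1, a phospholipid scramblase, rose by 0.52 (SE 0.09, adjusted p = 0.0043, or 0.20 with the mean of its probe sets).

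The promoters of these chemokine, LCN2 and IFITM genes are shown because each holds the binding motif of the factors its list is built around. They were picked among the called members for holding a match. They come from RefSeq on GRCh38.p14 and run 5' to 3' in the direction of the gene, from 250 bases before the annotated start to 10 after it. Capitals mark the kappaB consensus in the first 3 and the core of the interferon-stimulated response element, GAAANNGAAA, in the last 2.
CCL20: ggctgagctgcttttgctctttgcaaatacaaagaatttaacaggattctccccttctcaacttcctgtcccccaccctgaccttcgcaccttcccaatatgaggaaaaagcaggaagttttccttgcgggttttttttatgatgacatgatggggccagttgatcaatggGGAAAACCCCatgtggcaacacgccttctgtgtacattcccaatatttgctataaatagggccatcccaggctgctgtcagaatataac
CXCL2: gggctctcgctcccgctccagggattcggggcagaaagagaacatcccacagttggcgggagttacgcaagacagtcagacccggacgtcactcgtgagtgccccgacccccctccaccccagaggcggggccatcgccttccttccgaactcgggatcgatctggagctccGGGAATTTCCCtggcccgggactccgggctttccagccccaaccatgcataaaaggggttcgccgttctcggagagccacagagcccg
LCN2: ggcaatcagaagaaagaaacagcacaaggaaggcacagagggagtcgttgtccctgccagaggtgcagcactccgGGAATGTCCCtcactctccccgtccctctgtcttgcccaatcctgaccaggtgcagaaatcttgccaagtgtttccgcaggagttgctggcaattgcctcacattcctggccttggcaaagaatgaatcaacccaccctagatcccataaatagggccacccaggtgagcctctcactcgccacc
IFITM1: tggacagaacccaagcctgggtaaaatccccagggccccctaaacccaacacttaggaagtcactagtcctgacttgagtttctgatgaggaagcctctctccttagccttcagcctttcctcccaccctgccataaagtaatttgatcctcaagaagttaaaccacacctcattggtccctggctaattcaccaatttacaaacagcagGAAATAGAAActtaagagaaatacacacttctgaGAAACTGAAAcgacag
IFITM3: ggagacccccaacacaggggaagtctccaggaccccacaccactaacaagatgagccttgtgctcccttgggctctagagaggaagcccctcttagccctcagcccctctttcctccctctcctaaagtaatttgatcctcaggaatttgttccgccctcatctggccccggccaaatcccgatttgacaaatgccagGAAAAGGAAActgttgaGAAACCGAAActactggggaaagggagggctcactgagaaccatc
The CCL20 window is chr2:227813592-227813851, the CXCL2 window chr4:74099186-74099445 on the reverse strand, the LCN2 window chr9:128149203-128149462, the IFITM1 window chr11:313790-314049 and the IFITM3 window chr11:320851-321110 on the reverse strand. The kappaB match of CCL20 starts 79 bases before the start. The CXCL2 matches are 2 overlapping ones on opposite strands, 78 and 77 bases before it, and that of LCN2 lies 175 bases before it. IFITM1 holds matches 40 and 6 bases before its start, and IFITM3 52 and 35 bases before. PLSCR1, the member of the interferon list that rose, also holds the response element core, 79 bases before its start, so a match was not particular to members that fell. Over windows of 300 bases, from 250 before to 50 after the start, on both strands, the kappaB consensus was present in 28.3% of the 60 genes that fell and had a promoter in the table, in 9.41% of the 85 that rose, in 13.5% of the 6003 tested genes and in 11.3% of all 35116 promoters. The response element core was present in 8.33%, 1.18%, 2.82% and 3.57% of the same sets. The sequence TATAAA was present in 6.67%, 15.3%, 5.85% and 11.5%. These 3 are among 7 motifs searched, the shares are descriptions with no test, and a match shows letters and not binding. The consensus of the VDR element, repeated sites with a spacer of NNN, had no match in these windows among the genes that rose or fell, against 0.183% of tested genes. With a share this low, sets of 85 and 60 promoters would be likely to hold no match, so no conclusion is drawn from it.

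Of 28 tested surface and secreted markers of ovarian carcinoma, 4 fell and 2 rose, beside 1.14% and 1.38% of all genes tested. Their median was 0.08. VTCN1, the B7-H4 inhibitor of T cells, gave 893, 1025 and 764 at 8 h and 199, 326 and 182 at 72 h (log2 change -1.89, SE 0.27, adjusted p = 0.0010). MAL, a lipid-raft protein of apical transport, gave 1318, 1228 and 1196 at 8 h and 356, 518 and 362 at 72 h (log2 change -1.58, SE 0.15, adjusted p = 1.9e-05). LCN2 and S100A1 were the others that fell, S100A1, named after its values were seen, by 0.86 (adjusted p = 0.014, or 0.071 without 8 h replicate 3, with the call also lost without 8 h replicate 2 or 72 h replicate 3). KLK6 and KLK10 were the members that rose. The list therefore held large changes in both directions.

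The rest of the 15 largest falls belonged to varied classes. GDPD5, a glycerophosphodiester phosphodiesterase, gave 938, 1278 and 1391 at 8 h and 502, 537 and 407 at 72 h (log2 change -1.28, SE 0.16, adjusted p = 2.4e-04). NPR3, the clearance receptor of natriuretic peptides, gave 558, 543 and 778 at 8 h and 216, 264 and 371 at 72 h (log2 change -1.11, SE 0.21, adjusted p = 0.0097). That call ended with the mean of its probe sets (adjusted p 0.26), without 8 h replicate 3 (0.061) and without 72 h replicate 1 (0.055). PXDC1 fell from 1699 ± 207 to 698 ± 205 (log2 change -1.30, SE 0.17, adjusted p = 3.8e-04). PLEKHO2 gave 428, 467 and 517 at 8 h and 322, 106 and 175 at 72 h (log2 change -1.29, SE 0.29, adjusted p = 0.026), with 72 h replicate 1 well above the other two. Its call ended without any 1 of the 8 h arrays and without 72 h replicate 2 or 3 (highest adjusted p 0.11). EHF, an ETS-family transcription factor of epithelia, gave 349, 417 and 365 at 8 h and 148, 183 and 156 at 72 h (log2 change -1.14, SE 0.25, adjusted p = 0.020), and its call ended without 8 h replicate 2 or 3 or without 72 h replicate 1 or 3 (highest adjusted p 0.086). EMX2, a homeobox factor of the urogenital tract, was the other of 28 lineage factors that fell, by 0.44 (adjusted p = 0.029), a call that was lost without any 1 of the 8 h arrays or without 72 h replicate 3 (highest adjusted p 0.11). The share of all genes tested that fell was 1.14%.

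Of 36 junction and adhesion genes, 4 rose and 0 fell, beside 1.38% and 1.14% of all genes tested, with a median of 0.11. ITGB5, an integrin subunit that binds vitronectin, gave 2596, 2682 and 2191 at 8 h and 5596, 4170.2 and 4697 at 72 h (log2 change 0.94, SE 0.11, adjusted p = 2.1e-04), though another of its probe sets differed by -0.01. CLDN10, a tight junction claudin, rose by 0.71 (adjusted p = 0.0036). ALCAM, an adhesion molecule of the immunoglobulin family, and CDH1, the adhesion protein E-cadherin, rose by 0.86 and 0.44 (adjusted p = 0.021 and 0.037). The call of ALCAM ended without 8 h replicate 1 or without 72 h replicate 1 or 2 (highest adjusted p 0.097), and that of CDH1 in 12 of the 22 alternative settings. CALCB, a calcitonin gene-related peptide, gave 324, 245 and 329 at 8 h and 639, 502 and 708 at 72 h, beside 93.6 ± 2.58 in vehicle (log2 change 1.00, SE 0.20, adjusted p = 0.014). Its call was lost without 8 h replicate 2 and without 72 h replicate 1 or 3 (highest adjusted p 0.072). ATP2B4, a plasma membrane calcium pump, rose by 0.78 (SE 0.13, adjusted p = 0.0038). CALCB and ATP2B4 were the called genes among 16 of calcium transport and calcitonin peptides, beside 2.52% of all genes tested. The lysosomal cathepsins of the proteolysis list that passed moved in opposite directions. CTSD, an aspartic protease, rose by 1.00 (adjusted p = 7.6e-04) and CTSB, a cysteine protease, fell by 0.48 (adjusted p = 0.0015). CTSC, a cathepsin outside that list, rose by 0.84. PLAUR, the urokinase receptor, rose by 0.59 (adjusted p = 0.0072, or 0.069 with the mean of its probe sets). That made 2 risers and 1 fall among 26 proteolysis genes, beside 1.38% and 1.14% of all genes tested.

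**Figure D4:**
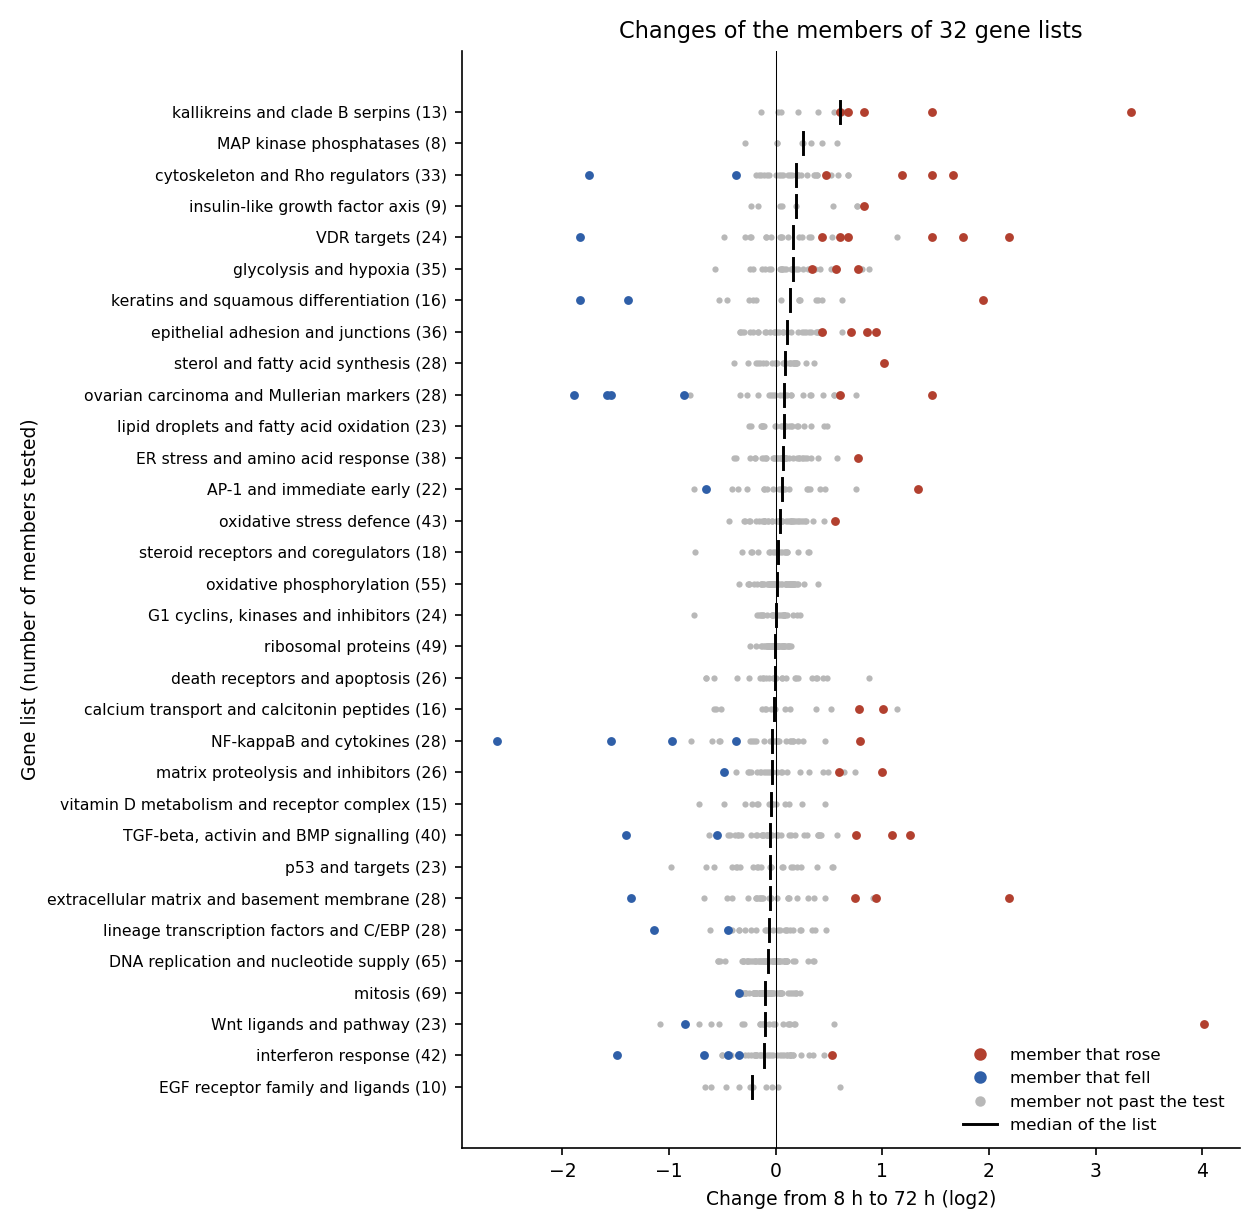
Change from 8 h to 72 h (horizontal axis, log2) of every tested member of 32 gene lists, sorted by the list median (black bar), with the number tested in brackets. Red members rose, blue members fell and grey members did not pass, and the list medians lie between -0.23 for EGF receptor family and ligands and 0.61 for kallikreins and clade B serpins.

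Among 35 glycolysis and hypoxia genes, 3 rose, beside 1.38% of all genes tested, 0 fell and the median was 0.16. Of its members, 28 had a positive difference and 14 an unadjusted p under 0.05, against 3399 and 1011 of all 7178 genes. DDIT4, an inhibitor of mTORC1 induced by stress, gave 1276, 1149.9 and 1148 at 8 h and 2461, 2088 and 1669.5 at 72 h (log2 change 0.77, SE 0.12, adjusted p = 0.0025). PFKP and TPI1, enzymes of glycolysis, rose by 0.56 and 0.34 (adjusted p = 0.010 and 0.048). The call of PFKP ended without 8 h replicate 1 or 3 (highest adjusted p 0.061), and that of TPI1 in 14 of 22 settings. TM7SF2, a sterol reductase of cholesterol synthesis, gave 873, 1072 and 879.9 at 8 h and 2487, 1891 and 1479.8 at 72 h (log2 change 1.01, SE 0.17, adjusted p = 0.0033), and was the called gene among 28 of sterol and fatty acid synthesis. GSTM3, a glutathione transferase, rose by 0.56 (adjusted p = 0.0078), as 1 of 43 oxidative stress genes. IGFBP4, which binds insulin-like growth factors, rose by 0.83 (adjusted p = 0.0097, or 0.052 without 8 h replicate 2), as 1 of 9 genes of that axis. These counts of 1 in a list stand beside the 1.38% of all genes tested that rose, and are not read as results about the lists.

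Cell division genes gave few calls of single genes. Of 69 mitosis genes, 53 had a negative difference, with a median of -0.10, against 3779 of all 7178 genes, and 3 had an unadjusted p under 0.05. RACGAP1, a regulator of cytokinesis, was the called member, 1 of 69, beside 1.14% of all genes tested that fell. It gave 1609, 1723 and 1751 at 8 h and 1215, 1428 and 1348 at 72 h (log2 change -0.35, SE 0.09, adjusted p = 0.0497), and its call ended in 16 of 22 settings. KLF4, a transcription factor of epithelial differentiation in the immediate early list, fell by 0.65 (adjusted p = 0.036), a call that ended in 11 of 22 settings. No member passed in the lists for DNA replication (65 tested), G1 regulators (24), p53 and targets (23), death receptors and apoptosis (26), the EGF receptor family (10), MAP kinase phosphatases (8), lipid droplets (23), steroid receptors (18), oxidative phosphorylation (55) or ribosomal proteins (49). Their medians lay between -0.23 and 0.25. At an unadjusted p under 0.05 by limma, which 1011 of all 7178 genes reached, these lists in that order had 9, 1, 7, 6, 2, 3, 2, 0, 5 and 0 members.

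The single U95 arrays gave a comparison on other RNA samples and other probes, with 1 array at each time and therefore no test. Over 4167 genes that passed the filter on U133A and on U95, 46.5% were higher on the 72 h than on the 8 h U95 array, with a median log2 ratio of -0.02. Of 74 genes that rose on U133A, 69 (93.2%) were higher on the 72 h U95 array, with a median of 0.60. Of 56 that fell, 50 (89.3%) were lower there, with a median of -0.54. FLG gave signals of 172 at 8 h and 1049 at 72 h, and SERPINB7 gave 364 and 901. WNT11, the largest rise on U133A, gave 688 and 994, a log2 ratio of only 0.52. CCL20 gave 427 and 261, a log2 ratio of -0.68. The genes with the other sign on U95 were GNB2, GREM1, GSTM3, TPI1 and TRAF5 among those that rose and B2M, C2CD5, CTSB, IFITM3, SORL1 and TNFAIP2 among those that fell, some of them named after their values were seen.

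**Figure D5:**
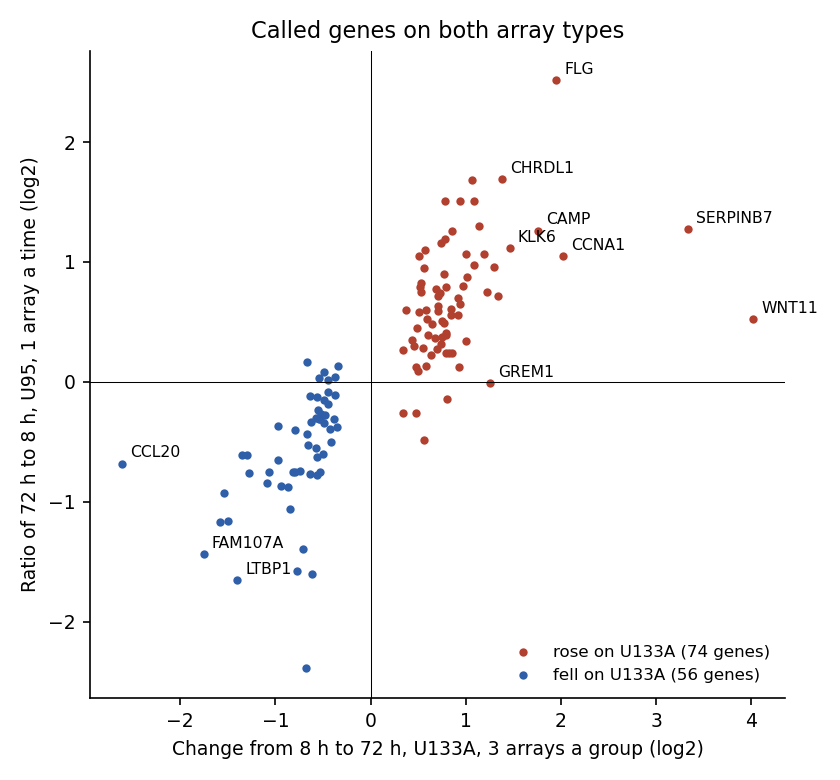
Log2 ratio of the 72 h to the 8 h U95 array (vertical axis, 1 array a time) against the change from 8 h to 72 h on U133A (horizontal axis, log2, 3 arrays a group) for the 74 genes that rose (red) and the 56 that fell (blue) and passed the filter on U133A and on U95. Of the red points 69 lie above 0, and of the blue points 50 lie below 0.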

How the data were processed

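The authors deposited 1 intensity per probe set and array. The submitters' processing notes name MAS5, without a version, for this signal. The 2% trimmed mean of the deposited values was 500.2 on every array, and they were used as deposited. Probe sets were named from the platform annotation and RefSeq. Of 22283 probe sets, 68 were controls. Of the others, 19065 had 1 gene, 1043 had several and 2107 were not listed. With R 4.3.3 and its package data.table (version 1.17.8), values became log2(signal + 15.833), where the offset is the 10th percentile over the U133A arrays. Each of 11963 genes was represented by its probe set of highest mean, and the 7178 at or above the 40th percentile were tested. limma 3.58.1 (lmFit, eBayes with trend) fitted the 12 U133A arrays in 4 groups, with 8 residual degrees of freedom. The contrast was 72 h minus 8 h, with Benjamini-Hochberg adjustment over all genes tested and a threshold of 0.05.

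Genes were named by rule: the 15 largest rises and 15 largest falls among called genes whose groups do not overlap, up to 4 called members of each list, lowest p first, and CYP24A1, CAMP, GADD45A and VDR. The comparison, the 32 gene lists and the 5 marker lists were chosen with earlier results of these data known. Lists are described by counts and medians, without a set test. Other offsets, filters, scalings and designs and leaving out each array were tried as alternatives, with array weights from statmod 1.5.0. RefSeq promoters were searched for 7 motifs on both strands. All columns were matched to samples. The number of arrays limits the precision.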

Additional observations from a re-analysis of the deposited data

How the results depend on the processing

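All 181 called genes that had a value kept their sign in the 22 alternative settings of the gene-level fit, and none of the named genes reversed. Of 61 named genes that passed, 38 did so in all 22, and 3 more, MAP1B, S100A8 and CSF1, in all but averaging probe sets, where they had no value. The number of called genes was 178 and 180 with offsets of 1 and 63.3, 147 without the filter, 169 with probe sets averaged within genes, 141 with median centring, 184 with quantile normalization, 151 with the 8 h and 72 h arrays alone, 162 with array weights and 140 without the trend. The 8 h and 72 h arrays alone gave 96 higher and 55 lower, or 63.6% higher against 54.7%. Calls said to end without an array also ended in other settings. Without the filter these were FN1, RAB38, CCN2, PLEKHO2, EHF, ALCAM, ID3, LGALS1 and TMEM100. Without the trend they were the same genes except EHF, with EMX2, KLK10, TNFAIP2 and B2M. Median centring ended EMX2, KLK10, ID3, TNFAIP2, B2M and LGALS1, and array weights RAB38, ALCAM, KLK10 and ID3. The 8 h and 72 h arrays alone ended EMX2 and TNFAIP2, and averaging probe sets ended TGFBR2, NPR3, KLK10, TNFAIP2 and B2M. With the replicate number as a block, 292 genes passed, 163 higher and 129 lower. Deviations of 8 h and 72 h arrays with the same number correlated at 0.106, 0.263 and 0.052, and those with different numbers at -0.170 to 0.061. These correlations do not settle whether the samples are paired. The labels do not state that equal numbers mark 1 experiment, so the block was kept as an alternative. With that block the adjusted p of GADD45A was 0.014 and that of VDR 0.048. Leaving out 1 array at a time gave 103 to 204 called genes, 63 to 112 higher and 40 to 92 lower. The fewest came without 8 h replicate 3. The cause of these shifts was not tested. Genes near the background signal have folds that depend on the offset.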

Other observations

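Other genes at least 2-fold apart, chosen after their values were seen, were not members of the lists described. ABLIM1, an actin-binding LIM protein, had a signal of 7421 ± 430.5 at 8 h and 15810.2 ± 1568 at 72 h (mean ± SD, n = 3; limma log2 change 1.09, SE 0.08). IDH2, the mitochondrial isocitrate dehydrogenase that makes NADPH, rose from 506 ± 63.6 to 1210.0 ± 237 (log2 change 1.22, SE 0.15, adjusted p = 2.1e-04). SULF1, which removes sulfate from heparan sulfate chains, rose from 694 ± 141 to 1531 ± 219.5 (log2 change 1.14, SE 0.19, adjusted p = 0.0043). GEM, a small GTPase that inhibits calcium channels, rose from 197 ± 14.2 to 462 ± 99.2 (log2 change 1.14, SE 0.24, adjusted p = 0.015), a call that ended without 8 h replicate 2 or 3 or without 72 h replicate 1 or 3 (highest adjusted p 0.075). LRRFIP2, AHNAK2 and GAB2 also rose, by 1.09, 1.07 and 1.00.

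Of the genes that fell, GPNMB, a transmembrane glycoprotein of pigment cells and macrophages, went from 587 ± 74.4 to 268 ± 37.4 (log2 change -1.09, SE 0.21, adjusted p = 0.0099, or 0.055 without 8 h replicate 2 or without 72 h replicate 1). Its vehicle and 24 h means were 702 ± 188 and 646 ± 208. LGALS1, the secreted lectin galectin-1, went from 2817 ± 785 to 1386 ± 588 (log2 change -1.07, SE 0.26, adjusted p = 0.038), a call that ended without vehicle replicate 2, 8 h replicate 1 or 2, or 72 h replicate 2 or 3 (highest adjusted p 0.16). TMEM100, a membrane protein of the endothelium and lung, went from 995 ± 229.5 to 487 ± 104 (adjusted p = 0.032), a call that ended without 8 h replicate 1 or 2 or without 72 h replicate 1 or 3 (highest adjusted p 0.14).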
